A study of Mus musculus with 2 samples.

Results

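The 7 genes examined here, Ccr2, Ccr9, Cxcr3, Cxcr4, Cxcr5, Cxcr6 and Cx3cr1, encode receptors that guide T cells to tissues. They were taken by gene symbol from the 32285 genes counted in both libraries, and all 7 were present in each. Donor T cells were profiled by single-cell RNA sequencing (scRNA-seq) in 2 libraries, 1 from day +7 and 1 from day +14 after allogeneic transplantation. In both groups, lethally irradiated BALB/c mice (H-2d) received T cell-depleted bone marrow and splenic T cells of wild-type C57BL/6 mice (H-2b), a fully mismatched model of acute graft-versus-host disease (aGvHD). Mice were 6 to 12 weeks of age. The labels of the 2 groups differ in the day and in no genotype or agent, and both library names contain PBS. Donor T cells were sorted from recipient spleens as CD45+ TCRβ+ cells that carried H2kb and lacked H2kd, and 5 spleens were pooled. The growth protocol of both samples describes a sort at day +7, so the days used here are those of the sample titles. The number of injected T cells given there is also lower than in a figure legend of the study, so the dose is not settled here.

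Chemokine receptors are seven-helix, G protein-coupled receptors, and T cells migrate along gradients of the chemokines that they bind. In aGvHD, donor T cells are primed in lymphoid organs and then enter the gut, liver, skin and lung, and the set of receptors on a T cell helps to decide which tissue it enters. CCR2 binds CCL2 and related chemokines made in inflamed tissue, CXCR3 binds the interferon-induced CXCL9 and CXCL10, CX3CR1 binds the membrane-anchored CX3CL1 and marks cytotoxic effector T cells, CXCR6 binds CXCL16 and retains T cells in liver and other tissues, and CCR9 binds CCL25 of the small intestine and thymus. CXCR4 binds CXCL12 and keeps cells in bone marrow, and CXCR5 binds CXCL13 and brings cells into B cell follicles. All samples are from spleen, so the values describe receptor mRNA in splenic T cells and not in T cells of those tissues.

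There was 1 library per day, so no difference between days could be set against replicates and no test was made. Intervals in brackets are exact 95% intervals that cover counting error only. Barcodes with 500 to 7500 genes and at most 15% mitochondrial unique molecular identifiers (UMIs) were used, 7179 at day +7 and 7794 at day +14, with a median of 9210 and 8144 UMIs. The libraries shared 20 barcodes. Levels are the UMIs of a gene summed over the cells of a gate, divided by all UMIs of that gate and scaled to CPM. T cells numbered 6916 and 7596 after droplets rich in neutrophil, macrophage, erythroid or B cell markers were left out. Among them, 5798 and 5934 cells held Cd8a or Cd8b1 without Cd4 or Foxp3 (CD8), and 456 and 694 held Cd4 without these (CD4). Only 41 and 39 held Foxp3 without Cd8a or Cd8b1 (Foxp3+). Genes of regulatory T cells marked the Foxp3+ gate, with Ikzf2 at 576 and 1022 CPM against 29.1 and 59.5 CPM in CD4 cells and Ctla4 at 383 and 769 CPM against 47.3 and 83.9 CPM. Nrp1 was an exception at 18.1 and 19.4 CPM in Foxp3+ against 44.3 and 54.3 CPM in CD4 cells. Cells with at least 0.1% of UMIs from 20 cell cycle genes were called cycling, which held for 62.5% and 67.8% of CD8 cells. A sum over a gate does not separate fewer expressing cells from less RNA per cell, so shares of cells are given beside levels.

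In the GRCm38 annotation of GENCODE, 5 of the 7 genes lie on chromosome 9, Cxcr4 lies on chromosome 1 (128588199 to 128592293, minus strand) and Cxcr3 on chromosome X (101731535 to 101734269, minus strand). Ccr9 (123678439 to 123784330), Cxcr6 (123806475 to 123811760) and Ccr2 (124101950 to 124113557) are neighbours on the plus strand of chromosome 9, in a stretch that also holds Xcr1, Ccr1 and Ccr3. Cx3cr1 (119901616 to 120069879) and Cxcr5 (44511787 to 44561877) are on its minus strand. Ccr2, Cxcr3 and Cxcr4 overlap no other annotated gene. Cxcr6 lies inside Fyco1, and Cxcr5 overlaps Bcl9l, each on the opposite strand. The annotated spans of Ccr9 and Cx3cr1 overlap 6 and 9 other genes, and the strand setting of the count was not examined here. Promoters of 6 of the 7 genes were matched in RefSeq (GRCm38.p6). The sequences of Cxcr6 and Cxcr4 upstream of the first exon are shown because both receptors had more UMIs in non-cycling CD8 cells at day +14 than at day +7, and because nearly all of their upstream bases lie outside annotated exons. Capitals mark the letters ACCACA, the reverse complement of the RUNX motif TGTGGT. Cxcr6 is read on the plus strand of chr9:123806227-123806474 and Cxcr4 on the minus strand of chr1:128592300-128592549.
Cxcr6: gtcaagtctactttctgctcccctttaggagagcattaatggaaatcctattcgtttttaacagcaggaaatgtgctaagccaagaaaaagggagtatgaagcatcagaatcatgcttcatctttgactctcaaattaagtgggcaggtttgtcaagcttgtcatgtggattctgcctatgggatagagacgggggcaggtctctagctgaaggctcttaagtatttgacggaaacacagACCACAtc
Cxcr4: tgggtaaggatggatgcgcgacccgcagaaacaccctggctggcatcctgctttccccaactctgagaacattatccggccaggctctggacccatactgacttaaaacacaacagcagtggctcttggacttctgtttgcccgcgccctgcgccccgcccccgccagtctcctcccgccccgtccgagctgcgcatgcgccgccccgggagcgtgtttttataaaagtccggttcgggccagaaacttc

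The Cxcr6 stretch is 43.5% G and C, and the Cxcr4 stretch is 61.2% G and C. Over the 250 bases before the RefSeq start, on both strands, TGTGGT was found in Cxcr3 (first base at position -110), Cxcr6 (-10) and Cx3cr1 (-54), which is 3 of 6 members against 14.0% of 32851 promoters. All of these matches were on the reverse strand. The motifs of T-box factors (TCACACC, 3.33% of promoters), AP-1 (TGANTCA, 6.75%), TCF (CTTTGAT, 3.21%) and FOXO (GTAAACA, 3.17%) were in none of the 6 windows. A match in so short a motif is a description of the letters only.

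Between the 2 days, Ccr2 fell and Cxcr4 rose in T cells as a whole, while Cxcr3, Cxcr6 and Cx3cr1 stayed within 2-fold. For Cxcr4 this is a difference in level, and the share of CD8 cells that held it was not separated from that of erythroid-rich droplets. Of the 5 receptors that reached a mean of 10 CPM and 20 UMIs, 1 was more than 2-fold higher at day +14 and 1 more than 2-fold lower, beside 2.15% and 1.34% of the 6872 genes that reached the same levels. The median log2 ratio was 0.18 over these 5 and 0.20 over all genes. Scaling by the median ratio of genes in place of the total lowers these T cell log2 ratios by 0.23, which turns the small positive values of Cxcr3 and Cxcr6 negative.

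**Figure D1:**
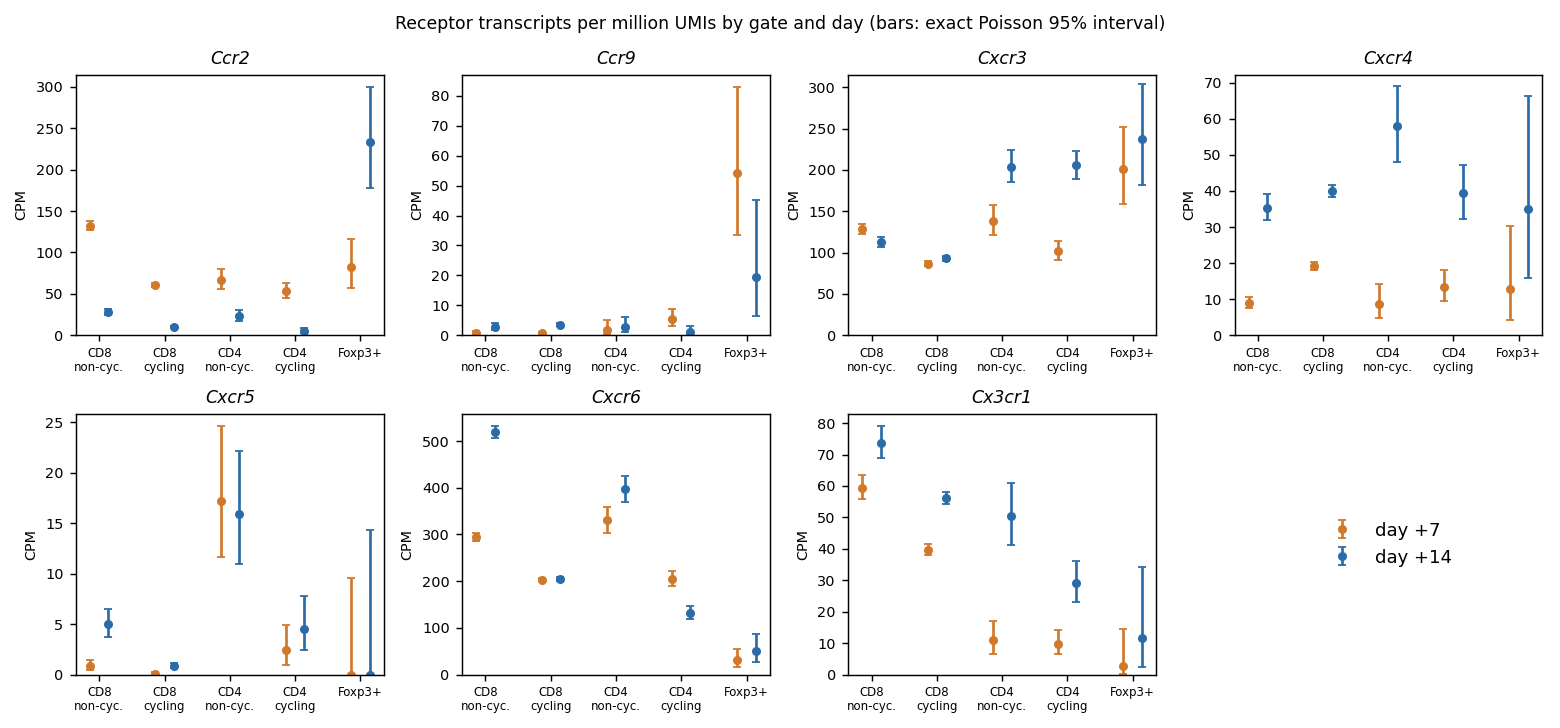
CPM of each receptor (linear axes, each panel with its own scale) by gate at day +7 and day +14, 1 library per day; points are levels and bars exact Poisson 95% intervals. Ccr2 is lower at day +14 in every CD8 and CD4 gate and higher in the Foxp3+ gate (82.7 and 233 CPM), and Cxcr4 is higher at day +14 in every CD8 and CD4 gate.

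Ccr2 stood at 75.7 [73.8, 77.6] CPM in T cells at day +7 and at 15.6 [14.8, 16.5] CPM at day +14. The levels differed 4.84-fold, a log2 ratio of -2.27 [-2.36, -2.19] that was at the 0.20 percentile of the genes compared. Non-cycling CD8 cells fell from 132 to 27.9 CPM and cycling CD8 cells from 60.5 to 10.5 CPM. In CD4 cells the level fell from 58.6 [51.9, 66.0] to 13.02 [10.05, 16.6] CPM. Every CD8 and CD4 gate was thus lower at day +14 by more than counting error. The Foxp3+ gate went the other way, from 82.7 [56.6, 117] to 233 [178, 300.1] CPM.

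Among the CD8, CD4 and Foxp3+ gates at day +7, non-cycling CD8 cells had the highest Ccr2 level. The Foxp3+ gate came next, with an interval that included the level of the non-cycling CD4 gate (67.2 CPM). Cycling CD8 (60.5 CPM) and cycling CD4 cells (53.5 CPM) followed with overlapping intervals. At day +14 the Foxp3+ gate was highest, ahead of non-cycling CD8 (27.9 CPM) and non-cycling CD4 cells (22.9 CPM), whose intervals overlapped. Cycling CD8 cells (10.5 CPM) and cycling CD4 cells (5.61 CPM) were lowest and did not overlap. The Foxp3+ level rests on 32 UMIs in 18 of 41 cells at day +7 and 60 UMIs in 17 of 39 cells at day +14, so the share of cells with Ccr2 was similar and the UMIs per positive cell were higher. Alternatives to the gate were added after the values were seen. Restricting it to cells that also held Cd4 left 20 and 14 cells, with 58.7 and 307 CPM. Requiring 2 Foxp3 UMIs left 23 and 24 cells, with 74.3 and 258 CPM. Macrophages also carry Ccr2, and their 8 markers summed to 6 UMIs in the Foxp3+ gate at day +7 and 1 UMI at day +14 (15.5 and 3.89 CPM). Droplets rich in these markers had been removed before the gate was drawn, so a low sum follows in part from that filter, and the part of macrophage RNA in the Ccr2 level was not tested. In cells with both Foxp3 and Cd8a or Cd8b1, a gate added after the values were seen, Ccr2 was at 76.3 and 87.1 CPM. This gate held more cells, 158 and 51, and its log2 ratio of 0.19 [-0.22, 0.59] was within counting error. Its median depth was 12472 and 13733 UMIs, against 8786 and 4807 UMIs in the Foxp3+ gate. The part of droplets with more than 1 cell in it was not tested.

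Cxcr3, a receptor of Th1-type and cytotoxic T cells, was at 101 [98.8, 103] CPM in T cells at day +7 and 110.3 [108, 113] CPM at day +14. In non-cycling CD8 cells it was 128 and 112 CPM and in cycling CD8 cells 86.7 and 92.9 CPM, log2 ratios of -0.19 and 0.10. CD4 cells differed more between days, with 139 and 204 CPM when non-cycling and 102 and 206 CPM when cycling. The latter is a log2 ratio of 1.02 [0.81, 1.22]. The Foxp3+ gate had 202 [159, 252] and 237 [181, 304] CPM, which overlapped. At day +7 the Foxp3+ gate was the highest and did not overlap any CD8 or CD4 gate. At day +14 its interval overlapped those of both CD4 gates, and all 3 were above both CD8 gates.

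Cx3cr1 was at 40.2 [38.9, 41.6] CPM in T cells of the day +7 library and at 56.2 [54.6, 57.9] CPM in those of day +14. The log2 ratio was 0.48 [0.42, 0.55]. CD8 cells carried most of it at day +7, with 59.5 CPM in non-cycling and 39.7 CPM in cycling cells against 10.3 [7.57, 13.6] CPM in CD4 cells. CD4 cells rose 3.73-fold to 38.3 [33.0, 44.1] CPM at day +14, when non-cycling CD4 cells had 50.4 CPM and non-cycling CD8 cells 73.8 CPM. In the CD4 comparison, Cxcr4 and Cx3cr1 were more than 2-fold higher and Ccr2 more than 2-fold lower, beside 4.18% and 1.25% of genes. The Foxp3+ gate held 1 and 3 UMIs of Cx3cr1.

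**Figure D2:**
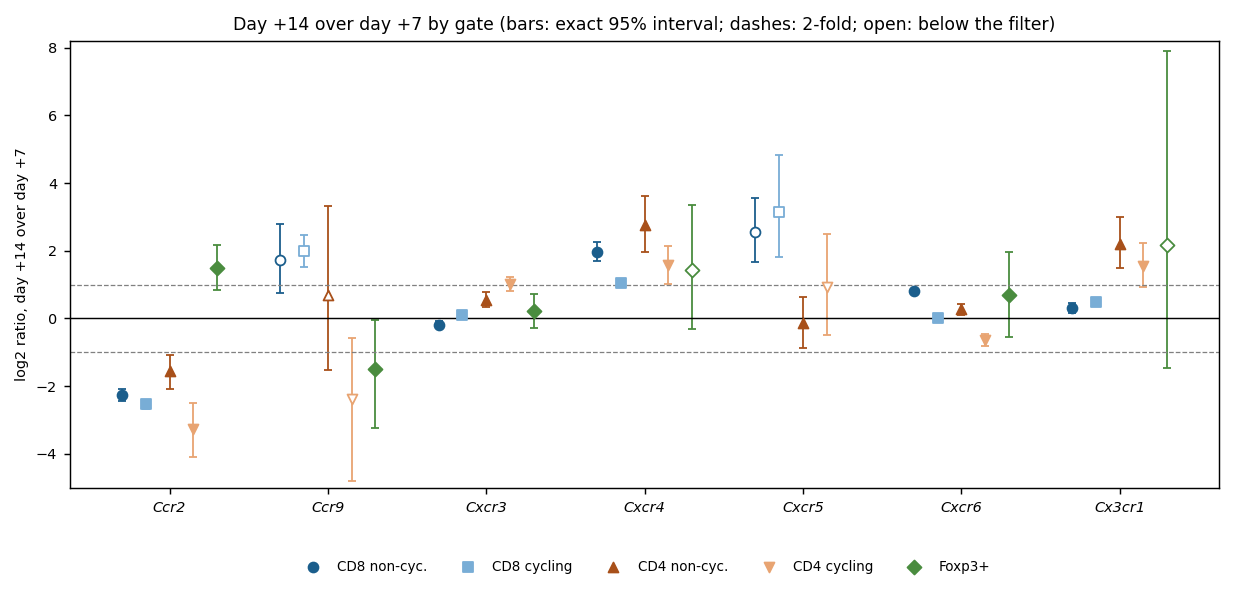
Log2 ratio of CPM at day +14 over day +7 for each receptor in each gate; points are ratios, bars exact conditional binomial 95% intervals, dashed lines 2-fold, and open symbols receptors below the minimum level. Ccr2 lies at -2.53 in cycling CD8 cells and 1.49 in Foxp3+ cells, and Cxcr6 is higher in non-cycling CD8 (0.82) and lower in cycling CD4 cells (-0.63).

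Cxcr6 was at 223 [219.8, 226] CPM in T cells at day +7 and 253 [250.02, 257] CPM at day +14. Non-cycling CD8 cells went from 294 [285, 302] to 519 [506, 533] CPM, while cycling CD8 cells had 203 [199.6, 207] and 205 [201, 208] CPM. The log2 ratio of non-cycling CD8 cells, 0.82 [0.77, 0.88], was below the 2-fold limit and at the 91.8 percentile of genes in that gate. Non-cycling CD4 cells had 329.9 and 397 CPM, and cycling CD4 cells had 206 and 133 CPM. The Foxp3+ gate was the lowest in both libraries, with 31.0 [16.0, 54.2] and 50.5 [26.9, 86.4] CPM. Cells holding both Foxp3 and Cd8a or Cd8b1 had 111 and 172 CPM.

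Ccr9 was rare in the spleen, with 172 UMIs in T cells at day +7 and 279 at day +14 (2.11 and 3.39 CPM), under the minimum used to compare genes. CD8 cells had 0.882 [0.673, 1.14] and 3.41 [2.97, 3.88] CPM, and CD4 cells had 4.06 [2.45, 6.34] and 1.80 [0.824, 3.42] CPM. The Foxp3+ gate was above the CD8 and CD4 gates in both libraries, with 54.3 [33.6, 83.0] CPM at day +7 and 19.4 [6.31, 45.3] CPM at day +14. These are 21 UMIs in 7 of 41 cells and 5 UMIs in 2 of 39 cells. Cells with both Foxp3 and Cd8a or Cd8b1 had 17.9 and 22.4 CPM. In the day comparison of the Foxp3+ gate, 4 receptors reached the minimum, of which Ccr2 was more than 2-fold higher and Ccr9 more than 2-fold lower, beside 8.43% and 3.24% of 3857 genes.

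Cxcr4, the receptor linked with homing to bone marrow, rose 2.56-fold in T cells, from 16.3 [15.4, 17.2] to 41.6 [40.2, 43.0] CPM. Its log2 ratio of 1.35 [1.26, 1.45] was at the 99.0 percentile of genes. Neutrophil-rich droplets differed alike, at 39.3 [26.7, 55.8] and 114 [91.8, 140.3] CPM, and the share of CD8 cells with Cxcr4 was not separated from that of erythroid-rich droplets at either day. The part of such RNA in the T cell values was not tested. Non-cycling CD8 cells rose from 9.04 to 35.4 CPM, cycling CD8 cells from 19.2 to 40.1 CPM, and CD4 cells from 11.5 to 47.3 CPM. In non-cycling CD8 cells, 1 receptor (Cxcr4) was more than 2-fold higher and 1 (Ccr2) more than 2-fold lower, beside 4.64% and 1.45% of genes. In these cells Cxcr4 was below 10 CPM at day +7 and reached the minimum mean only through day +14. Its call there is therefore a description. The same 2 receptors were called in cycling CD8 cells, beside 1.87% and 1.41%.

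Cxcr5, the receptor of follicular helper T cells, had 66 UMIs in T cells at day +7 and 204 at day +14. Non-cycling CD4 cells had the highest level of the gates, 17.2 [11.6, 24.6] CPM in 24 of 238 cells at day +7 and 15.9 [10.99, 22.2] CPM in 31 of 440 cells at day +14. Non-cycling CD8 cells had 0.840 [0.447, 1.44] and 4.98 [3.75, 6.48] CPM. No Cxcr5 UMI was found in the Foxp3+ gate at either day, where 3 UMIs would be 7.75 and 11.7 CPM.

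Low shares of cells were read against droplets rich in markers of other cell types, with each cell thinned to 4000 UMIs. These droplets need not lack every receptor. Neutrophil-rich droplets held Cxcr4 at 39.3 and 114 CPM, above T cells at 16.3 and 41.6 CPM. In CD8 cells, 26.8% [25.7, 28.0] held Ccr2 at day +7 and 5.20% [4.63, 5.83] at day +14. Neutrophil-rich droplets gave 9.76% of 41 at day +7 and 9.09% [3.02, 19.95] of 55 at day +14, and erythroid-rich droplets gave 2.97% of 101 at day +7. At day +14 the neutrophil-rich droplets held 4.83 Ccr2 UMIs per positive droplet, up to 12 in 1, against 1.60 per positive CD8 cell, and erythroid-rich droplets left only 15 to compare (6.67% [0.169, 31.9]). The droplets thus gave no firm background for Ccr2 at day +14, and they could not settle whether its share in CD8 cells was above background. In the same library, 0.893% [0.108, 3.19] of 224 cycling CD4 cells held Ccr2, a lower share than in CD8 cells. At the same day, 8.51% [7.18, 10.0] of non-cycling and 3.88% [3.29, 4.53] of cycling CD8 cells held Ccr2, a difference beyond counting error. Before thinning, the shares in CD8 cells were 44.0% and 9.29%, at median depths of 6632 and 5199 UMIs in non-cycling and 12443 and 11428 UMIs in cycling cells. Median depths were 13812 and 7118 UMIs in neutrophil-rich and 32632 and 3763 UMIs in erythroid-rich droplets.

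Cxcr4 was in 5.51% and 13.3% of thinned CD8 cells, against 4.95% [1.63, 11.2] of erythroid-rich droplets at day +7 and 13.3% of only 15 at day +14. The shares of Cxcr4 in CD8 cells were therefore not separated from those of erythroid-rich droplets at either day, at day +14 on few droplets. Its level at day +7 was 16.9 [15.9, 17.9] CPM in CD8 cells and 9.21 [6.34, 12.9] CPM in erythroid-rich droplets. Neutrophil-rich droplets were higher, at 39.3 CPM. At day +14 the intervals of CD8 cells and erythroid-rich droplets overlapped (39.3 and 18.8 CPM). Cxcr6 was in 55.9% and 55.8% of CD8 cells, Cxcr3 in 31.2% and 31.7%, and Cx3cr1 in 16.2% and 19.3%. Of neutrophil-rich droplets, 9.76% and 10.9% held Cxcr6, 0% and 9.09% held Cxcr3, and 0% and 3.64% held Cx3cr1. Macrophage-rich droplets gave shares nearer to those of CD8 cells, with the exception of Cxcr3 at day +14, and had Cxcr6 in 46.4% of 56 and 56.0% of 25, Cxcr3 in 26.8% and 4%, Cx3cr1 in 16.1% and 24.0%, and Ccr2 in 25% and 8%. They also held T cell marker RNA at 4141 and 5402 CPM, against 5991 and 7608 CPM in T cells, 927 and 2394 CPM in neutrophil-rich and 404 and 2664 CPM in erythroid-rich droplets. Ccr9 was in 0.316% and 1.19% of CD8 cells and Cxcr5 in 0.123% and 0.715%. At day +7 neither was in any of 101 erythroid-rich droplets, which allows a share of up to 2.97%, so neither could be told from background in CD8 cells.

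**Figure D3:**
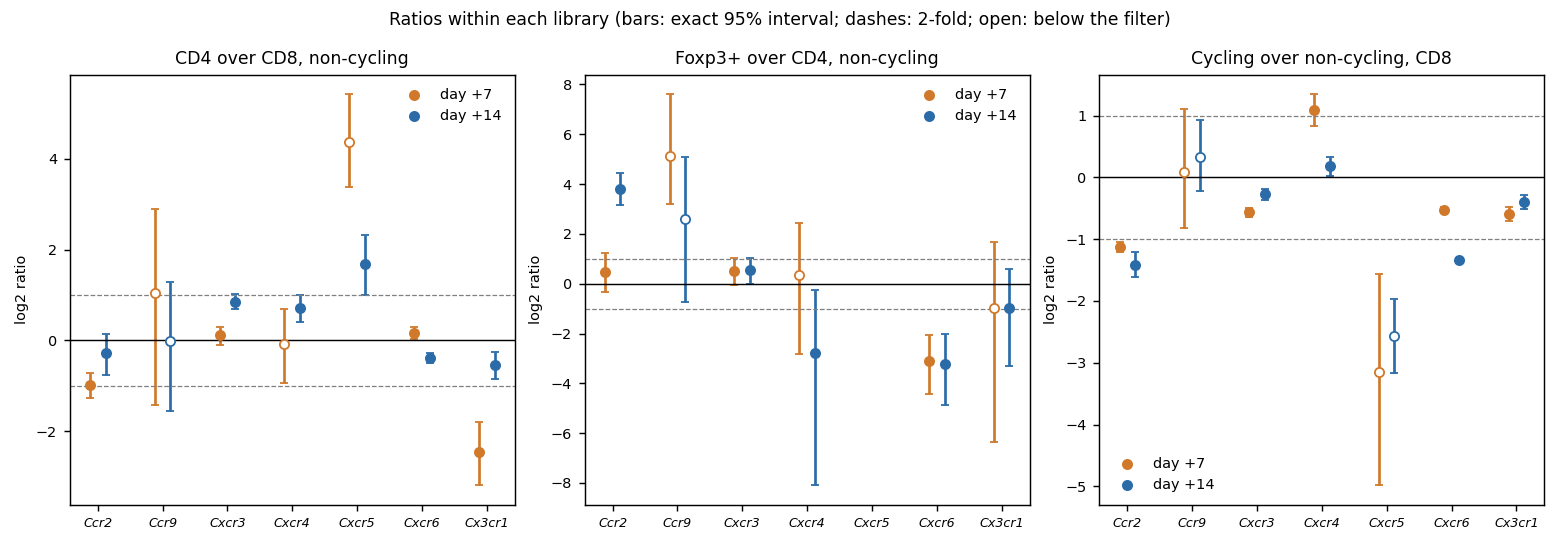
Log2 ratio of CPM within each library for each receptor, for CD4 over CD8 and Foxp3+ over CD4 (non-cycling cells) and for cycling over non-cycling CD8 cells; bars are exact conditional binomial 95% intervals, dashed lines 2-fold and open symbols below the minimum level. Cxcr6 is lower in Foxp3+ cells at both days (-3.10 and -3.23), and Ccr2 is lower in cycling CD8 cells at both days (-1.13 and -1.41).

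CD4 and CD8 cells were compared among non-cycling cells of each library. Cxcr5 was higher in CD4 cells, by a log2 ratio of 4.36 [3.38, 5.42] at day +7 and 1.67 [1.01, 2.32] at day +14, although it did not reach the minimum level at day +7. Cx3cr1 was lower in CD4 cells, by -2.45 [-3.18, -1.79] at day +7 and -0.55 at day +14. Ccr2 gave -0.98 [-1.26, -0.71] and -0.29 [-0.75, 0.15], so its difference at day +14 was within counting error. Cxcr3 gave 0.11 and 0.86, Cxcr4 -0.07 and 0.71, and Cxcr6 0.17 and -0.39. No receptor that reached the minimum in both libraries was past 2-fold in the same direction in both, beside 1.1% of genes higher and 0.604% lower in CD4 cells. The ratio of Ccr9, 1.04 at day +7, rested on 3 CD4 UMIs and 13 CD8 UMIs, and ranged from 0.17 with 2 coreceptor UMIs required to 2.20 with cycling cells included.

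Foxp3+ cells were compared with CD4 cells, both non-cycling, with 24 Foxp3+ cells in each library. Cxcr6 was 8.57-fold lower at day +7 and 9.38-fold lower at day +14, the only receptor that reached the minimum and passed 2-fold in the same direction at both days, beside 2.26% of genes higher and 3.77% lower. Ccr2 did not differ beyond counting error at day +7, with a log2 ratio of 0.47 [-0.35, 1.22], and was 14.05-fold higher in Foxp3+ cells at day +14, with 3.81 [3.16, 4.45]. Cxcr3 gave 0.51 and 0.54. Ccr9 counted 11 UMIs in Foxp3+ against 3 in CD4 cells at day +7, and 2 against 6 at day +14. Cxcr5 counted 0 against 30 and 0 against 34. The upper limits of its log2 ratio were 0.32 and 1.05, so this absence was within counting error.

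Cycling CD8 cells had less Ccr2 than non-cycling CD8 cells, by -1.13 at day +7 and -1.41 at day +14. Of the receptors that reached the minimum, Ccr2 was the only one lower by more than 2-fold in both libraries, beside 1.16% of genes lower and 7.01% higher. Cxcr5, below the minimum, gave -3.14 and -2.57. With CPM averaged per cell in place of summed UMIs, the ratio of Ccr2 at day +7 was -0.92 and so under 2-fold. Cxcr6 was lower by -0.53 and -1.34, Cxcr3 by -0.56 and -0.27, and Cx3cr1 by -0.59 and -0.39. Cxcr4 was the exception, with 1.08 at day +7 and 0.18 at day +14. The day +7 value of Cxcr4 was 0.80 with CPM averaged per cell. Thinned shares of Cxcr4 were 4.04% [3.24, 4.97] in non-cycling and 6.37% [5.59, 7.21] in cycling CD8 cells at day +7.

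Many CD8 cells held more than one of these receptors. Of non-cycling CD8 cells thinned to 4000 UMIs, 13.8% at day +7 and 10.2% at day +14 held none of the 7, 35.4% and 43.5% held 1, 33.8% and 34.4% held 2, and 14.3% and 10.3% held 3. Of 60 comparisons (10 pairs of the 5 commoner receptors, in 3 gates at 2 days), the intervals of cells with and without the other receptor were apart in 7 and overlapped in the rest. At day +7, Cxcr3 was found in 41.0% of non-cycling CD8 cells with Ccr2 and 33.5% of those without, and Cxcr6 in 66.5% and 59.2%. At day +14 the same shares were 41.4% and 33.3% for Cxcr3 and 78.2% and 72.5% for Cxcr6, with intervals that overlapped. Among cycling CD8 cells, Cx3cr1 was in 18.7% of cells with Ccr2 and 14.0% of those without at day +7, and in 29.1% and 18.6% at day +14. Cxcr3 was in 30.03% and 27.8% at day +7, which overlapped, and in 43.7% and 30.3% at day +14. Background was not settled for Ccr2 in CD8 cells at day +14, so the values of that day describe detection only. In CD4 cells, Cxcr6 was in 72.0% of cells with Ccr2 and 50.7% of those without at day +7, but the intervals overlapped at day +14 (66.7% of 15 cells and 44.2%). It was in 67.2% of CD4 cells with Cx3cr1 and 41.9% of those without at day +14, and the intervals overlapped at day +7 (62.5% of 24 cells and 54.2%).

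Non-cycling CD8 cells that held Cxcr6 or Cx3cr1 had less RNA of the memory and stem-like genes Tcf7 and Id3 than cells without it. The same held for Ccr2 at day +7. In cells with Cxcr6, Cx3cr1 or Ccr2, both genes were below 10 CPM at day +7. They reached the minimum mean there only through the cells without the receptor, so the ratios are given as a description. Tcf7 encodes TCF1, a transcription factor of naive and stem-like memory T cells, and Id3 encodes a repressor of E proteins in the same cells. Cells with Cxcr6 (1301 and 1140) had 7.49 and 13.6 CPM of Tcf7, against 29.0 and 102 CPM in cells without (803 and 422). Id3 was at 9.99 and 11.8 CPM against 39.2 and 82.9 CPM. Cells with and without Cxcr6 thus differed by more than 2-fold in the same direction at both days in both genes, beside 0.0164% of genes higher and 0.0818% lower. The median log2 ratio of the memory genes that could be compared was -0.36 at day +7 and -1.31 at day +14 for Cxcr6, against 0.02 and 0.01 over all genes. It was -0.06 and -0.81 for Cx3cr1 and, on the other side of 0, 0.07 and 0.11 for Ccr2, so Tcf7 and Id3 do not stand for the whole list. They are the 2 of 7 memory genes that passed 2-fold in both libraries for Cx3cr1. The same 2 of 7 passed for Ccr2, but its day +14 group had 133 cells and no Id3 UMI. Background was not settled for that group, so only day +7 is read for Ccr2.

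**Figure D4:**
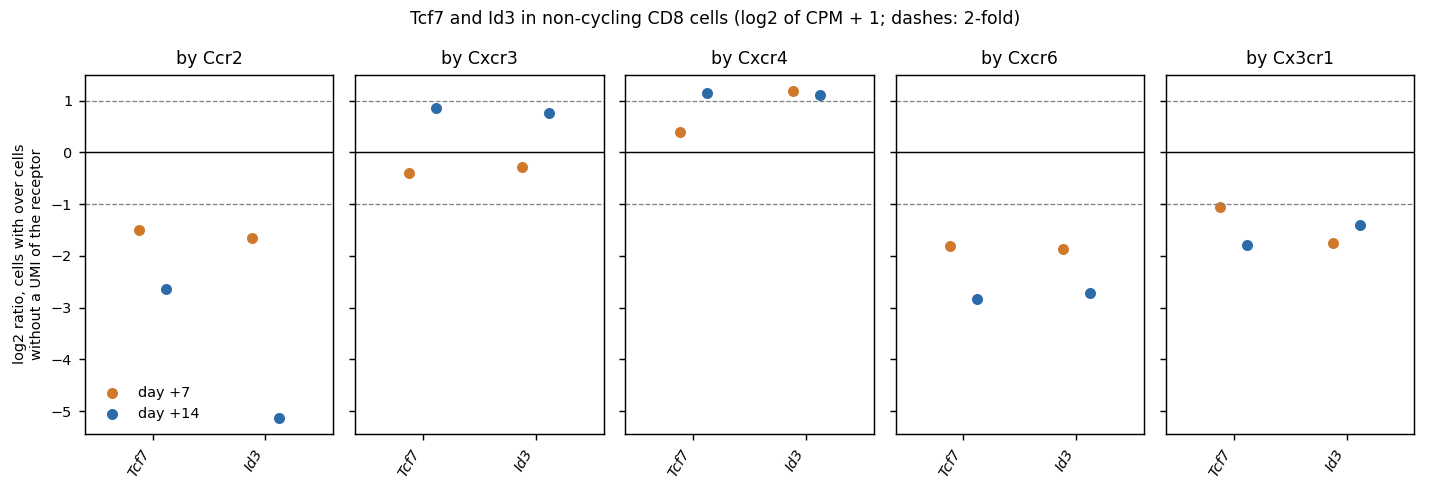
Log2 ratio of CPM, with 1 CPM added, of Tcf7 and Id3 in non-cycling CD8 cells with over those without a UMI of each receptor, thinned to 4000 UMIs, at day +7 and day +14; dashed lines are 2-fold. Both genes lie below the lower dashed line at both days for Cxcr6, Cx3cr1 and Ccr2, where Id3 at day +14 rests on 0 UMIs. Background was not settled for Ccr2 at day +14, and detection of Cxcr4 was not separated from that in erythroid-rich droplets.

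Cells with Cx3cr1 (382 and 313) had 7.85 and 11.98 CPM of Tcf7 against 17.4 and 44.0 CPM in cells without, and 6.54 and 12.8 CPM of Id3 against 24.4 and 35.6 CPM. The shares of all genes past 2-fold in both libraries were 0.0164% higher and 0.0491% lower. For the 133 cells with a Ccr2 UMI at day +14 background was not settled, so that day is given as a description of detection. Cells with Ccr2 (752 and 133) had 6.65 and 5.64 CPM of Tcf7 against 20.7 and 40.6 CPM. Id3 was at 8.31 CPM against 28.3 CPM at day +7, and at 0 UMIs against 33.9 CPM at day +14. In that comparison 0% of genes were higher and 0.0495% lower. Detection of Cxcr4 was not separated from that in erythroid-rich droplets at either day. The 85 and 179 cells with a Cxcr4 UMI are thus not read as cells that express it. They had 47.1 and 60.1 CPM of Id3 against 20.1 and 27.3 CPM in cells without, beside 0.0667% of genes in each direction. No gene of the lists passed 2-fold in both libraries for Cxcr3, where 0% of genes were higher and 0.0164% lower. The genes listed for effector function and for inhibitory receptors gave no call in both libraries for any of these 5 receptors.

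In CD4 cells, too few held Cxcr5 for the comparison, and Cxcr6 was examined after its values were seen. Cells with Cxcr6 (242 and 222) had 319 and 241 CPM of Klrd1, which encodes the NK cell receptor CD94, against 152 and 61.4 CPM in cells without. Ccr2 was at 96.1 and 22.5 CPM against 41.0 and 8.24 CPM. Tcf7 was at 16.5 and 37.2 CPM against 116 and 134 CPM. Klrd1 was 1 of 10 effector genes, Ccr2 1 of 3 receptors and Tcf7 1 of 7 memory genes past 2-fold in both libraries. Beside them, 0.323% of genes were higher and 0.21% lower. In the later library, Ccr2 was below 10 CPM in cells without Cxcr6 (8.24 CPM). It reached the minimum mean there only through the cells with Cxcr6, so its call in both libraries is a description. The median log2 ratio was 0.06 and -0.55 over the memory genes, so Tcf7 does not stand for that list. Over the effector genes it was 0.43 and 0.56.

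Among other genes of chemokine receptor signalling, S1pr1 and Gpr183 fell and Rgs16 rose in T cells as a whole, but not in every gate. Of 20 other receptors for chemokines or egress cues, 4 reached the minimum in T cells, 0 were more than 2-fold higher and 2 were more than 2-fold lower, with a median of -0.85, beside 2.15% of all genes higher and 1.34% lower. The lower genes were S1pr1, the receptor that lets T cells leave lymphoid organs along sphingosine-1-phosphate (99.7 and 45.2 CPM), and Gpr183, a receptor for oxysterols (57.1 and 28.2 CPM). Of 10 genes of receptor desensitisation that reached the minimum, Rgs16, which speeds the inactivation of G proteins, was 4.75-fold higher (9.95 and 47.3 CPM), 1 of 10 beside the same 2.15%. Rgs16 was just below 10 CPM in T cells of the earlier library. It reached the minimum mean there only through day +14, so its call in T cells is a description. Of 14 signalling genes, none passed 2-fold, and no listed chemokine reached the minimum. Rgs16 was also past 2-fold higher in non-cycling CD8 and CD4 cells, beside 4.64% and 4.18% of genes. S1pr1 and Gpr183 were both past 2-fold lower in non-cycling CD8 cells, beside 1.45% of genes. Over all CD8 cells only S1pr1 passed, and in CD4 cells only Gpr183, beside 1.25% of genes. In the Foxp3+ gate, 0 of 4 other receptors and 0 of 6 desensitisation genes passed 2-fold, beside 8.43% of genes higher and 3.24% lower. In non-cycling CD8 cells Ccrl2 was at 6.40 and 17.1 CPM, past 2-fold beside 4.64% of genes. It reached the minimum mean only through day +14, so these levels are a description. In CD4 cells Cxcl10, a ligand of CXCR3, was at 5.99 and 23.0 CPM, past 2-fold beside 4.18% of genes. It too reached the minimum mean only through day +14 and is given as a description.

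Between gates, Rgs10, a further regulator of G proteins, was higher in non-cycling CD4 than in non-cycling CD8 cells (142 against 43.0 CPM and 189 against 61.4 CPM). It was lower in cycling than in non-cycling CD8 cells, with 17.8 and 19.4 CPM. Foxp3+ cells held 1 and 2 UMIs of Rgs16 and 0 and 1 UMIs of Pik3cg, below the CPM of CD4 cells in both libraries, but within counting error except for Rgs16 at day +14.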

How the data were processed

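Per the labels and the study's methods, the deposited files hold raw UMI counts for each gene in each barcode, which the authors made with Cell Ranger 6.1.2 against mm10 (GRCm38) for barcodes that passed cell detection, with no normalization. Each day is 1 library of T cells pooled from 5 spleens. Barcodes with 500 to 7500 genes and at most 15% mitochondrial UMIs were kept. Droplets with at least 1% neutrophil, 0.1% macrophage, 0.2% erythroid or 0.1% B cell marker UMIs were left out, and T cells needed 3 UMIs of T cell receptor or CD3 genes. A gate needed 1 UMI of its marker, and cycling cells 0.1% cell cycle UMIs. Kept barcodes held 86745047 and 83808218 UMIs.

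UMIs were summed per gate and library as CPM. Intervals are exact Poisson for levels, Clopper-Pearson for shares and conditional binomial for ratios, at 95%. Ratios carry no pseudocount, except for state genes, with 1 CPM added. Genes were compared at a mean of at least 10 CPM and 20 UMIs over both groups, and called past 2-fold. A gene below 10 CPM in 1 group could reach this mean through the other group alone, and its call is then a description. A share of 0 allows up to 3 counts. Shares and co-detection used cells thinned to 4000 UMIs with a fixed seed. Scrublet in scanpy 1.11.5 marked 0 barcodes in either library and so did not work here, and an alternative left out the 433 and 518 barcodes with the highest scores. Python 3.11.15, numpy 2.4.6, scipy 1.17.1, pandas 2.3.3 and matplotlib 3.10.9 were used, and the calculations were tested on simulated data.

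Alternatives were other scaling, gates, cycling limits, mean CPM per cell, no filter and no T cell gate. Named genes are the 7 receptors, the genes of fixed pathway and state lists past 2-fold (in both libraries where compared within libraries), and the 3 genes most like each receptor. Some genes that the rule names are not reported here. The members and lists were chosen with earlier results of these data known. The gates of cells with Foxp3 and Cd8a or Cd8b1, and the comparison of CD4 cells by Cxcr6, were added after values were seen.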

Additional observations from a re-analysis of the deposited data

Results flagged for a closer look

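For 4 receptors the day +14 over day +7 ratios of 2 gates pointed in opposite directions with both intervals clear of 0, and the difference between the gates was not tested. Ccr2 had a log2 ratio of 1.49 in Foxp3+ cells and -3.25 in cycling CD4 cells. Ccr9 had 1.98 in cycling CD8 cells and -2.37 in cycling CD4 cells, the latter on 16 and 3 UMIs. Both were below the minimum level, and Ccr9 could not be told from background in CD8 cells. Cxcr3 had 1.02 in cycling CD4 cells and -0.19 in non-cycling CD8 cells. Cxcr6 had 0.82 in non-cycling CD8 cells and -0.63 in cycling CD4 cells.

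Barcodes left out for their number of genes or their mitochondrial share also held receptor UMIs. The 176 barcodes at day +7 had 91 UMIs of the 7 receptors among 379781, and the 249 barcodes at day +14 had 123 among 425593.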

How the results depend on the processing

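No alternative reversed a value past 2-fold, and every day ratio of T cells past 2-fold stayed so. Of 42 alternative values of the day ratio in T cells, 30 moved by less than counting error and 12 by more. With median ratio scaling the log2 ratios were -2.51 (Ccr2), -0.11 (Cxcr3), 1.12 (Cxcr4), -0.048 (Cxcr6) and 0.25 (Cx3cr1). With CPM averaged per cell they were -2.14 (Ccr2), 0.18 (Cxcr3), 1.57 (Cxcr4) and 0.42 (Cxcr6), and without the T cell gate -2.14 (Ccr2), 0.19 (Cxcr3) and 0.24 (Cxcr6). With no filter on low counts, 2 receptors rather than 1 were more than 2-fold higher, Cxcr5 being added.

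For CD4 over CD8, 50 of 56 values moved by less than counting error. With cycling cells included, Ccr2 was -0.39 at day +7, and at day +14 Cxcr3 was 1.09, Cxcr4 0.27, Cxcr5 2.62 and Cxcr6 -0.066. With 2 coreceptor UMIs required, Ccr9 was -1.81 at day +14. For cycling over non-cycling CD8 cells, 34 of 42 did so. Ccr2 at day +7 was -1.04 with a limit of 0.2%, and Cxcr6 at day +14 was -1.27 with 0.05%. With CPM averaged per cell, day +7 gave -0.92 (Ccr2), 0.80 (Cxcr4), -0.42 (Cxcr6) and -0.42 (Cx3cr1), and day +14 gave -1.26 (Cxcr6) and -0.27 (Cx3cr1).

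Alternatives for the Foxp3+ gate were chosen after seeing the data. The day ratio of Ccr2 was 2.39 with a Cd4 UMI required, and that of Cxcr6 was -0.73 with 2 Foxp3 UMIs. Of 28 shares of CD8 cells computed with all UMIs or with fewer UMIs per cell, 27 moved by more than counting error. The causes were not tested. No paired analysis was possible because there is 1 library per day. The 41 and 39 Foxp3+ cells limit all values of that gate.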

Other observations

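Over 8 groups of cells (gate by cycling by day, at least 50 cells each, from the same 2 libraries), the 3 genes whose log2 CPM followed each receptor most closely among 4967 genes were listed as a description. For Ccr2 they were Cyb5r4, AA467197 and 2810001G20Rik, with Pearson r of 0.987, 0.983 and 0.983. For Cxcr3 they were Ccm2, Ldah and Gcg (0.973, 0.956 and 0.948). Gcg, the glucagon gene, ranged from 0.0951 to 231 CPM over these groups, and whether these UMIs come from a transcript of T cells could not be settled. For Cxcr4 they were Fam168b, Otud4 and Cirbp (0.988, 0.985 and 0.985). For Cxcr5 they were Isg20, Tcf12 and Tcf7 (0.987, 0.985 and 0.980), for Cxcr6 Cst7, Pde7a and Ipcef1 (0.965, 0.963 and 0.960), and for Cx3cr1 Abcb9, Crtam and Cd160 (0.965, 0.9398 and 0.935). The groups share libraries and depth, so these values carry no test.

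Ccr6 was chosen after its values were seen. This receptor of CCL20 had 14 UMIs in T cells at day +7 and 211 at day +14 (0.17 and 2.56 CPM), under the minimum used to compare genes.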
